A study of Mus musculus with 45 samples.

Results

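The genes described here are the steroid hormone receptors of the mouse uterus and direct targets or partners of the estrogen and progesterone receptors: Esr1, Pgr, Nr3c1, Nr3c2, Nr2f2, Greb1, Hand2, Ihh and Areg. They were chosen by name, and all 9 were found among the 24422 gene rows of a table of molecule counts made by STRT RNA-seq, a protocol in which a read starts at the 5′ end of a messenger RNA and carries a tag for the molecule it came from. The samples came from 14 female mice of the outbred CD-1 stock, 7 wildtype (WT) and 7 with a Plag1 knockout (Plag1KO, here KO). Each mouse gave an intact segment of horn (uterus), scrapings of the mucosa (endometrium) and the wall that was left (myometrium), which gave 6 groups of 7 mice. Every mouse, WT included, had been superovulated with 5 IU PMSG, followed 2 days later by 5 IU hCG, and was killed 1 day after that. The methods of the study give an age range for its mice but do not say whether the females that gave uteri had been mated. A group is therefore a uterus after gonadotropin treatment, not one from a natural cycle, and no untreated uterus was measured. The comparison of genotypes asks whether the maternal tract itself differs without Plag1, and the comparisons of tissues place each gene in the wall of the organ.

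Steroid receptors are transcription factors that enter action when a hormone binds them. In the uterus, estrogen acting through Esr1 drives growth of the epithelium and raises Pgr, the progesterone receptor, and progesterone then acts against that growth. Part of this exchange passes between cell layers: progesterone raises Ihh, a secreted hedgehog ligand, in the epithelium, Ihh signals to the stroma, where Nr2f2 (COUP-TFII) is needed for the response, and stromal Hand2 restrains growth factors that would otherwise stimulate the epithelium.

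Libraries held 256298 to 1222627 gene counts, so that a floor of 3 counts stood at 2.45 to 11.7 CPM, which are counts scaled to a common library total. Levels are given as CPM scaled with TMM factors, which assume that most genes do not differ between samples, and libraries made more than once from the same mouse and tissue were summed. Plag1 itself had 7 counts in all and at most 1 in a sample, and 35 of 42 samples were at 0, so that the genotype labels could not be checked on these counts. Smooth muscle markers (4 genes) summed to 8631 to 25153 CPM in the myometrium of WT mice and 11113 to 20947 in that of KO mice, against 330 to 6974 and 199 to 8223 in endometrium. Epithelial markers (4 genes) ran the other way, with medians of 102 and 189 CPM in WT and KO myometrium and of 909 and 1412 in endometrium, and those genes were above 0 in every group. The labelled layers thus carried their markers, although the highest endometrium samples reached the smooth muscle level of whole uterus, which began at 5478 CPM. Ovgp1, a gene of the oviduct epithelium, reached 5024 CPM in a WT endometrium sample, and its part in the results was not tested. Each library carries a code of a letter and a number, and the letter is read here as a plate row, which the labels do not state. By that reading, whole uterus lay in rows A and D, myometrium in B and E and endometrium in C and F, apart from repeat libraries. Tissue and plate row thus cannot be told apart.

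Of the 9 genes, 6 were measured well enough to be compared: Esr1, Pgr, Nr3c1, Nr2f2, Greb1 and Hand2, with medians of 50, 20, 10, 38.5, 7 and 35.5 counts over the 42 samples. The other 3 lay at or near the floor. Nr3c2, the mineralocorticoid receptor, had 18 counts in all, with 32 of 42 samples at 0 and a highest count of 5, in the myometrium of KO mouse 11. Ihh had 11 counts, 34 samples at 0 and at most 2 in a sample. Of those 11, the WT endometrium held 5 and the KO endometrium 3, while the KO uterus and the KO myometrium held 0 each. Areg, an epidermal growth factor family ligand that progesterone and estrogen raise in the luminal epithelium, had 2 counts, 1 each in the endometrium of WT mice 8 and 12, and 40 samples were at 0. At this depth a difference between groups in Nr3c2, Ihh or Areg was not detectable, and no fold change is given for them. Ihh or Nr3c2 entered some fits through the filter on low counts, and neither passed a test.

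The genes are spread over the genome. In build NCBIM37 (mm9), GENCODE vM1 places Esr1 at chr10:5340927-5734948, Pgr at chr9:8900419-8965425, Nr3c2 at chr8:79423341-79768911, Nr2f2 at chr7:77496832-77511621, Greb1 at chr12:16677421-16807692, Hand2 at chr8:59799780-59803314, Ihh at chr1:74991891-74998246 and Areg at chr5:91568641-91577458. Small RNA genes lie within Esr1, Greb1 and Nr3c2, and a long noncoding RNA gene, Gm10649, overlaps Nr3c2 on the opposite strand. Since the use of strand in counting was not stated, reads of such overlapping genes cannot be told apart. No overlap with another gene was annotated for Pgr, Nr2f2, Hand2, Ihh or Areg.

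Promoter sequences are shown for the gene that estrogen is best known to raise, Greb1, and for Pgr and Nr2f2, which differed between tissues. RefSeq (build GRCm38.p6) gave 10 promoter windows for 8 of the genes, each 300 bases long, from 250 before the start site to 50 after it, and all are written 5′ to 3′ on the strand of the gene. Capitals mark GGTCA (read as TGACC on the other strand), the single arm of the estrogen response element, and ACANNNTGT, the core of the element shared by the progesterone, glucocorticoid and mineralocorticoid receptors. The windows are Greb1 upstream, chr12:16800837-16801136 on the minus strand; Greb1 internal, chr12:16757190-16757489 on the minus strand; Pgr, chr9:8899583-8899882 on the plus strand; and Nr2f2, chr7:70366697-70366996 on the minus strand.
Greb1 upstream: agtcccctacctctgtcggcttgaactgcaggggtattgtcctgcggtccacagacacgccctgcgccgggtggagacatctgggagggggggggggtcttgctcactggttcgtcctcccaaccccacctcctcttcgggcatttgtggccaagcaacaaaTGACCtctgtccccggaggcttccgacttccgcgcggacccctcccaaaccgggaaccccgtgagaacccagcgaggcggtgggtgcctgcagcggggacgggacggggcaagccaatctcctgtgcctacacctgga
Greb1 internal: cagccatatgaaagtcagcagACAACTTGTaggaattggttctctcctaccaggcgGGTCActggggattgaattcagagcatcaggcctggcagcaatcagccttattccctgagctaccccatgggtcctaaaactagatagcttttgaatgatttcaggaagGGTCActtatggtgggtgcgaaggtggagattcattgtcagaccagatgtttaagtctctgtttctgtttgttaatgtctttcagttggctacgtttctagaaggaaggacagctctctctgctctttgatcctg
Pgr: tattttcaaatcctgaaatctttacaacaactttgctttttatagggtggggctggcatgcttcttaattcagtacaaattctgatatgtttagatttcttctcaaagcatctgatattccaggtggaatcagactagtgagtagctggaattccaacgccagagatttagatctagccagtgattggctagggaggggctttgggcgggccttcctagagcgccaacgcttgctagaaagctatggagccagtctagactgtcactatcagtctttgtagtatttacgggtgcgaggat
Nr2f2: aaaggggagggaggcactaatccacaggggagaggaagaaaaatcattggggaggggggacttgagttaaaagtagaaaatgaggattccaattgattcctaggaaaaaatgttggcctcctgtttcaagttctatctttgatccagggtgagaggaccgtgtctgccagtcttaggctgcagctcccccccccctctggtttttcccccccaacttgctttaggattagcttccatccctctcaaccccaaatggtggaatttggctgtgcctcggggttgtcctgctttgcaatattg
In the upstream window of Greb1 the arm began 88 bases before the start site, on the opposite strand. In the internal window it began 194 and 85 bases before the start site, and the core of the shared element 229 bases before it. Neither the Pgr window nor the Nr2f2 window held a match. Over all 10 windows, GGTCA was found in 5, from 4 of the genes (Esr1, Nr3c2, Greb1 and Areg), against 40.5% of 32851 promoters of the same length. ACANNNTGT was found in 1 of the 10, against 6.85% of all promoters. The whole estrogen response element GGTCANNNTGACC, which contains the arm on both strands, and the stricter shared element GNACANNNTGTNC, which contains the core, were found in 0 of the 10, and in 0.07% and 0.475% of all promoters. A match here is a description of letters and not of binding.

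**Figure D1:**
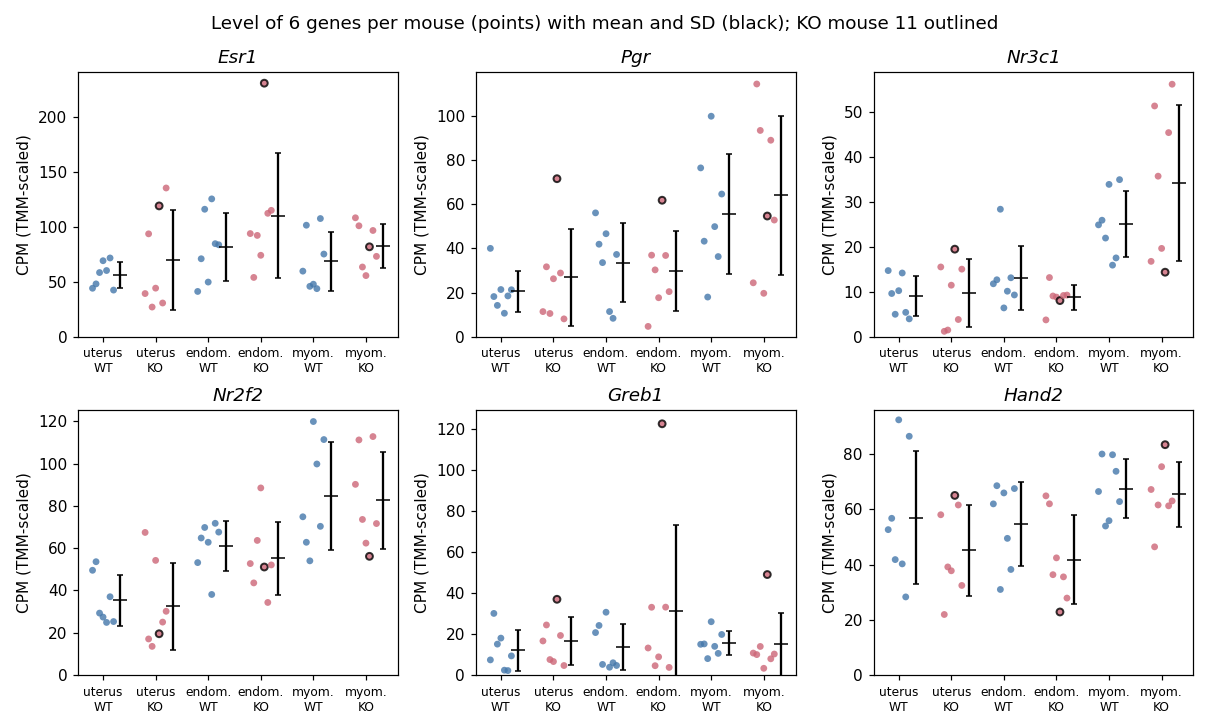
Level of each of the 6 measurable genes (vertical axis, TMM-scaled CPM, linear from 0) in whole uterus, endometrium and myometrium of WT and KO mice. Each point is a mouse, bars give the mean and the SD of 7 mice, and KO mouse 11 is outlined. In every panel WT and KO points of the same tissue overlap, and the outlined mouse reaches 122 CPM for Greb1 in endometrium.

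Esr1, the estrogen receptor alpha, was found in all 6 groups. In whole uterus, Esr1 ran from 42.6 through a median of 58.6 to 71.9 CPM in WT, and KO samples from 27.1 through 44.4 to 136 CPM. In endometrium, its lowest, median and highest values were 41.4, 83.9 and 126 CPM in WT and 54.1, 94.1 and 231 CPM in KO. In myometrium they were 43.9, 59.9 and 108 CPM in WT and 55.8, 82.0 and 109 CPM in KO. All of these ranges overlapped, and the highest value was the endometrium of KO mouse 11. The mean was highest in KO endometrium, 111 ± 57.3 CPM, and lowest in WT uterus, 56.5 ± 11.8 CPM (SD, n = 7 each).

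Pgr, the progesterone receptor and itself an estrogen target, was lowest in whole uterus. Its lowest, median and highest values there were 10.7, 18.5 and 40.0 CPM in WT and 8.12, 26.3 and 71.6 CPM in KO. In endometrium, Pgr gave 8.37, 37.3 and 56.1 CPM in WT and 4.71, 30.3 and 61.8 CPM in KO. In myometrium, Pgr gave 18.0, 49.9 and 99.9 CPM in WT and 19.7, 54.7 and 114 CPM in KO. Myometrium held the highest samples of both genotypes, while every pair of groups next to each other in the order of means overlapped. KO mouse 11 was the highest KO sample in uterus and in endometrium. The group means rose from 20.6 ± 9.39 CPM in WT uterus to 64.1 ± 36.0 CPM in KO myometrium (SD, n = 7 each).

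Nr3c1, the glucocorticoid receptor, stood higher in myometrium than in the other tissues by its mean. In whole uterus, Nr3c1 ran from 3.99 through a median of 9.64 to 14.8 CPM in WT, and KO samples from 1.22 through 11.5 to 19.5 CPM. In endometrium, Nr3c1 gave 6.44, 11.8 and 28.4 CPM in WT and 3.76, 9.09 and 13.2 CPM in KO. In myometrium, Nr3c1 gave 16.0, 24.9 and 35.0 CPM in WT and 14.4, 35.8 and 56.3 CPM in KO. Every WT myometrium sample lay above every WT uterus sample, and every KO myometrium sample lay above every KO endometrium sample. The other layer pairs within a genotype overlapped. Its extreme groups were KO myometrium, at 34.3 ± 17.4 CPM, and KO endometrium, at 8.78 ± 2.76 CPM, and these do not overlap (SD, n = 7 each). The highest and lowest groups of the other 5 genes overlapped, and for Nr3c1 the gap was narrow, at 14.4 against 13.2 CPM. The share of all genes whose groups stay apart was not counted, here or for other pairs of groups. Such a gap is therefore a description and not shown to be particular to Nr3c1. A low value of Nr3c1 in a single sample rests on few molecules, since the floor of 3 counts reached 11.7 CPM in the shallowest library.

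Nr2f2, which encodes the nuclear receptor COUP-TFII of stromal cells, was lowest in whole uterus of both genotypes. Its lowest, median and highest values in uterus were 24.9, 29.3 and 53.6 CPM in WT and 13.6, 25.0 and 67.4 CPM in KO. In endometrium, Nr2f2 gave 38.1, 64.8 and 71.7 CPM in WT and 34.3, 52.1 and 88.5 CPM in KO. In myometrium, Nr2f2 gave 54.0, 74.8 and 120 CPM in WT and 56.1, 73.6 and 113 CPM in KO. No WT uterus sample reached the lowest WT myometrium sample, whereas the KO ranges overlapped. Means were 35.3 ± 11.9 and 32.4 ± 20.5 CPM in WT and KO uterus, 61.1 ± 11.8 and 55.1 ± 17.2 CPM in endometrium and 84.7 ± 25.5 and 82.5 ± 22.7 CPM in myometrium (SD, n = 7 each).

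Greb1, a cofactor of the estrogen receptor that estrogen raises, varied widely between mice. In whole uterus, Greb1 ran from 2.18 through a median of 9.32 to 30.0 CPM in WT, and KO samples from 4.64 through 16.6 to 36.9 CPM. In endometrium, Greb1 gave 3.81, 5.98 and 30.6 CPM in WT and 3.72, 13.2 and 122 CPM in KO. In myometrium, Greb1 gave 8.00, 15.0 and 26.0 CPM in WT and 3.28, 10.2 and 48.9 CPM in KO. All groups overlapped, and KO mouse 11 gave the highest KO value in each of the 3 tissues, from 17, 91 and 34 counts in uterus, endometrium and myometrium. Because of that mouse the SD in KO endometrium, 42.04 CPM, was larger than the mean of 31.2 CPM (n = 7).

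Hand2, a transcription factor of stromal cells that progesterone raises, had group means within a narrow range. In whole uterus, Hand2 ran from 28.3 through a median of 52.7 to 92.5 CPM in WT, and KO samples from 21.9 through 39.2 to 65.1 CPM. In endometrium, Hand2 gave 31.0, 62.0 and 68.6 CPM in WT and 22.9, 36.4 and 64.9 CPM in KO. In myometrium, Hand2 gave 54.0, 66.5 and 80.1 CPM in WT and 46.5, 63.1 and 83.5 CPM in KO. The groups overlapped throughout. Means lay between 41.7 ± 16.2 CPM in KO endometrium and 67.6 ± 10.7 CPM in WT myometrium (SD, n = 7 each).

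Set against myometrium, whole uterus held less Nr2f2, Nr3c1 and Pgr message in both genotypes. Tests were fitted over all genes with edgeR (quasi-likelihood F test, Benjamini-Hochberg adjustment, threshold 0.05), and differences are log2 fold changes ± SE, negative where uterus was lower. Of the 6 genes, 3 passed in WT, where 12.0% of 13104 tested genes passed, and 3 passed in KO, where 14.1% of 12970 passed. All were lower in whole uterus, while Esr1, Hand2 and Greb1 did not pass in either genotype. Over the tested genes the median difference was 0.04 in WT and -0.01 in KO. In bulk tissue of this kind, fewer cells of a type and less message per cell cannot be told apart.

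Nr2f2 differed by -1.26 ± 0.25 in WT (edgeR adjusted p = 0.00223) and by -1.35 ± 0.31 in KO (edgeR adjusted p = 0.00376). It was lower in the uterus than in the myometrium of the same mouse in 7 of 7 WT and 7 of 7 KO mice. For the glucocorticoid receptor Nr3c1 the differences were -1.46 ± 0.34 in WT (edgeR adjusted p = 0.00679) and -1.83 ± 0.45 in KO (edgeR adjusted p = 0.0069), with the uterus lower in 7 of 7 WT and 6 of 7 KO mice. Nr3c1 had 3 counts or fewer in 1 of 7 WT and 3 of 7 KO uterus samples, so the size of its differences is uncertain. Pgr differed by -1.43 ± 0.33 in WT (edgeR adjusted p = 0.00623) and by -1.34 ± 0.41 in KO (edgeR adjusted p = 0.0267). For Pgr the uterus was lower in 7 of 7 WT and 5 of 7 KO mice, so the KO difference was less uniform than that of the other 2 genes. The KO call for Pgr was lost without KO mouse 4 (edgeR adjusted p = 0.0973), 6 (0.115), 13 (0.0816) or 14 (0.0633). Esr1 gave -0.30 ± 0.24 in WT and -0.27 ± 0.31 in KO (edgeR adjusted p = 0.466 and 0.611). Hand2 gave -0.25 ± 0.25 and -0.57 ± 0.25 (edgeR adjusted p = 0.569 and 0.129), and Greb1 gave -0.34 ± 0.45 in WT (edgeR adjusted p = 0.673).

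**Figure D2:**
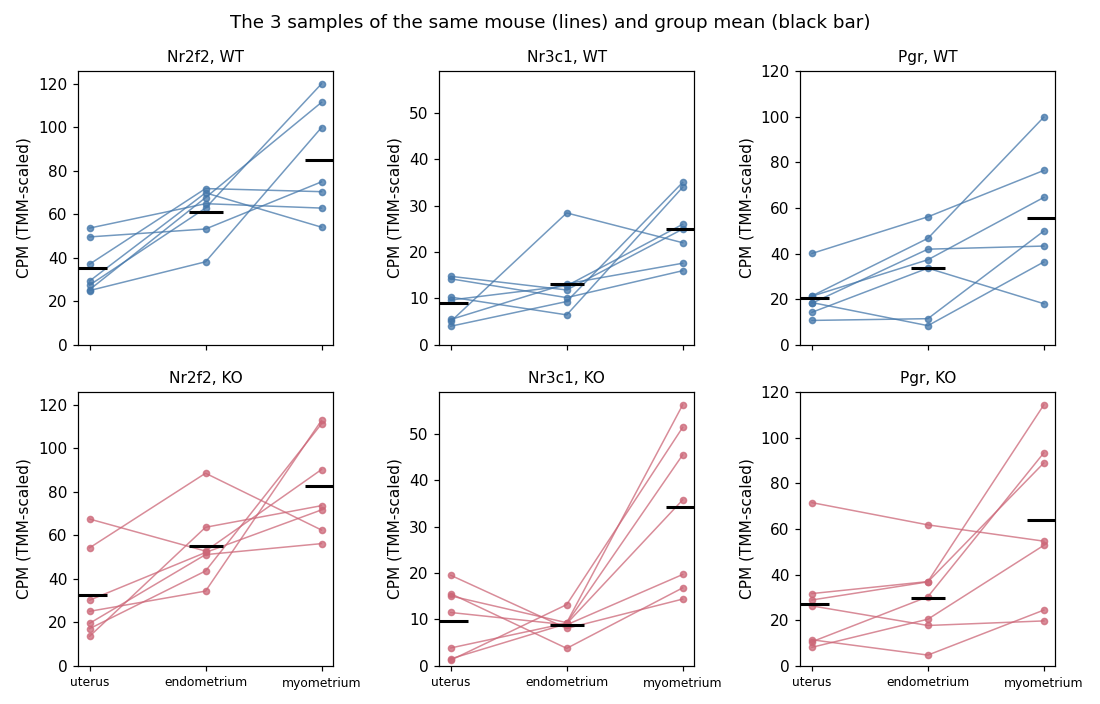
Levels of Nr2f2, Nr3c1 and Pgr (vertical axis, TMM-scaled CPM) in the uterus, endometrium and myometrium of each mouse, with 1 line per mouse and WT and KO drawn separately. For Nr2f2 all 7 WT lines and all 7 KO lines rise from uterus to myometrium, and for Nr3c1 all 7 KO lines rise from endometrium to myometrium.

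These 3 calls depended on how libraries were put on a common scale. When the added ERCC spike-in RNA set the scale, 0 of the 6 genes passed in either genotype. Nr2f2 then gave -0.55 in WT and -0.89 in KO (edgeR adjusted p = 0.0975 and 0.0990), Nr3c1 gave -0.73 and -1.34 (edgeR adjusted p = 0.0988 and 0.0685) and Pgr gave -0.70 and -0.97 (edgeR adjusted p = 0.0999 and 0.134). Under that scale the median over all genes moved to 0.75 in WT and 0.42 in KO, and among called genes the part higher in uterus grew to 97.1% from 55.9% for WT, and to 92.9% from 57.0% for KO. Relative to the median of all genes the values hardly moved, but a change of scale shifts all genes of a sample alike. Subtracting the median takes that shift out again, so this likeness was largely fixed in advance and is no check of the calls. Nr2f2 lay at -1.31 in WT and -1.34 in KO with TMM factors and at -1.30 and -1.31 with spike-ins. Nr3c1 lay at -1.51 and -1.82 with TMM factors and at -1.48 and -1.75 with spike-ins, and Pgr at -1.47 and -1.33, then -1.45 and -1.39. The sign of Esr1 in both genotypes, and of Greb1 and Hand2 in WT, turned positive with spike-ins, and these passed under neither scale. Spike-ins made up 0.80 to 0.97% of counts in WT uterus and 1.14 to 1.97% in WT myometrium. In KO they made up 0.88 to 1.16% and 1.36 to 2.61%. Libraries held 777012 to 1222627 gene counts in WT uterus and 451916 to 858698 in WT myometrium. In KO they held 485887 to 1089394 and 309987 to 691105. The part of depth and spike-in share in these calls was not tested.

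A whole piece of horn contains both layers, yet Nr2f2 in whole uterus lay below both the endometrium and the myometrium of the same mouse in 7 of 7 WT and 6 of 7 KO mice. Pgr lay below both in 6 of 7 WT and 4 of 7 KO mice, and Nr3c1 in 4 of 7 and 3 of 7. Esr1 did so in 3 and 4 mice, Hand2 in 4 and 3 and Greb1 in 4 and 1. These counts per mouse have no share of all genes beside them, which was taken on group means. By group means, Esr1, Pgr, Nr3c1, Nr2f2 and Greb1 lay below both layers in WT, and Esr1, Pgr and Nr2f2 in KO. Among 2869 genes of at least moderate level, the mean of whole uterus lay below both layer means for 13.8% in WT and 17.7% in KO, and above both for 53.2% and 47.6%. With the spike-in scale, the counts for Nr2f2 fell to 4 of 7 WT and 5 of 7 KO mice, and the shares of all genes by group means to 3.0% and 10.7%. On that scale the means of Pgr and Nr2f2 lay below both layers in WT, and those of Pgr, Nr2f2 and Hand2 in KO. The sums of mesothelial markers (3 genes), from cells that cover the outside of the horn, were 30.8 to 184 CPM in WT and 45.2 to 315 CPM in KO uterus, against 4.33 to 81.8 and 4.32 to 61.4 CPM in myometrium and 0 to 50.8 and 0 to 6.70 CPM in endometrium. The stromal fibroblast sum (5 genes) had medians of 2029 and 2228 CPM in WT and KO uterus, 2643 and 3743 CPM in myometrium and 1176 and 1348 CPM in endometrium. Nr2f2 and the fibroblast sum thus stood in a different order, and the part of either marker group in these results was not tested.

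Between the layers themselves, Nr3c1 was lower in endometrium than in myometrium of KO mice. Of the 6 genes, 0 passed in WT, where 13.2% of all tested genes passed, and 1 passed in KO, where 19.3% passed. Nr3c1 differed by -1.96 ± 0.36 in KO (edgeR adjusted p = 0.00038), and it was lower in the endometrium of 7 of 7 KO mice. On the spike-in scale this difference of Nr3c1 was -1.49 (edgeR adjusted p = 0.00947), while the median of all genes moved from 0.08 to 0.58 and the part of called genes higher in endometrium grew to 86.3% from 54.9%. In WT the same difference was -0.98 ± 0.34 (edgeR adjusted p = 0.0564, unadjusted p under 0.05), with 6 of 7 mice lower. DESeq2 called it in WT, as did edgeR without WT mouse 5, so that the WT result lay at the threshold, and with spike-ins it gave -0.80 (edgeR adjusted p = 0.206), with 67.3% of called genes higher in place of 51.6%. The KO difference minus the WT difference was -0.97 ± 0.49 (edgeR adjusted p = 0.993), and a larger layer difference in KO was thus not shown. In that test of the difference between genotypes, 0 of the 6 genes and 0% of 14314 tested genes passed, by edgeR and by DESeq2, with 658 genes and 0 of the 6 at an unadjusted edgeR p under 0.05.

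With TMM factors, Pgr, Nr2f2 and Hand2 were also lower in endometrium than in myometrium, without passing. Pgr gave -0.75 ± 0.37 in WT and -1.09 ± 0.40 in KO (edgeR adjusted p = 0.218 and 0.0577), with endometrium lower in 6 of 7 mice of each genotype. Nr2f2 gave -0.46 ± 0.25 and -0.59 ± 0.24 (edgeR adjusted p = 0.247 and 0.0899), and Hand2 gave -0.28 ± 0.25 and -0.63 ± 0.25 (edgeR adjusted p = 0.531 and 0.0786). Fitting the mouse as a replicate block, since the layers of a mouse are paired, called 3 of the 6 genes in KO: Nr3c1 (edgeR adjusted p = 6.4e-06), Pgr at -1.15 ± 0.28 (edgeR adjusted p = 0.000829) and Hand2 at -0.68 ± 0.25 (edgeR adjusted p = 0.0442). Without KO mouse 11 or KO mouse 2, Pgr passed in KO with no block, without KO mouse 4 Hand2 did, and without KO mouse 9 Nr2f2 did. Esr1 had the opposite sign, at 0.24 ± 0.28 and 0.42 ± 0.27 (edgeR adjusted p = 0.666 and 0.307). Greb1 gave -0.21 ± 0.45 in WT and 1.01 ± 0.60 in KO (edgeR adjusted p = 0.837 and 0.266), and the difference between the genotypes was 1.22 ± 0.81 (edgeR adjusted p = 0.993). On the spike-in scale, with no block, the differences of Pgr, Nr2f2 and Hand2 were smaller. Hand2 then gave -0.08 in WT and -0.08 in KO (edgeR adjusted p = 0.930 and 0.891). Nr2f2 gave -0.27 and -0.19 (edgeR adjusted p = 0.703 and 0.692), and Pgr gave -0.61 and -0.64 (edgeR adjusted p = 0.370 and 0.298). The smooth muscle sums of endometrium samples ran from 199 to 8223 CPM in KO mice, and their part in these layer differences was not tested.

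Whole uterus against endometrium gave the fewest called genes of the tissue comparisons. Of the 6 genes, 0 passed in WT and 0 in KO, where 1.60% and 1.25% of all tested genes passed. Nr2f2 came nearest, at -0.83 ± 0.25 in WT and -0.79 ± 0.33 in KO (edgeR adjusted p = 0.101 and 0.273), negative meaning lower in uterus. It was lower in the uterus of 7 of 7 WT and 6 of 7 KO mice. With the replicate block for the paired tissues it passed in WT, at -0.87 ± 0.26 (edgeR adjusted p = 0.0382), and DESeq2 called it there without the block. With spike-ins Nr2f2 gave -0.28 in WT and -0.70 in KO (edgeR adjusted p = 0.639 and 0.499), and the part of called genes higher in uterus grew to 97.3% from 65.7% in WT and to 90.0% from 74.1% in KO. Esr1 gave -0.58 ± 0.26 and -0.71 ± 0.37 (edgeR adjusted p = 0.277 and 0.383), and Pgr gave -0.72 ± 0.38 and -0.27 ± 0.47 (edgeR adjusted p = 0.386 and 0.847). At an unadjusted edgeR p under 0.05 there were 2 of the 6 genes in WT, Nr2f2 and Esr1, and 1 in KO, Nr2f2, beside 15.1% and 14.4% of all tested genes.

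**Figure D3:**
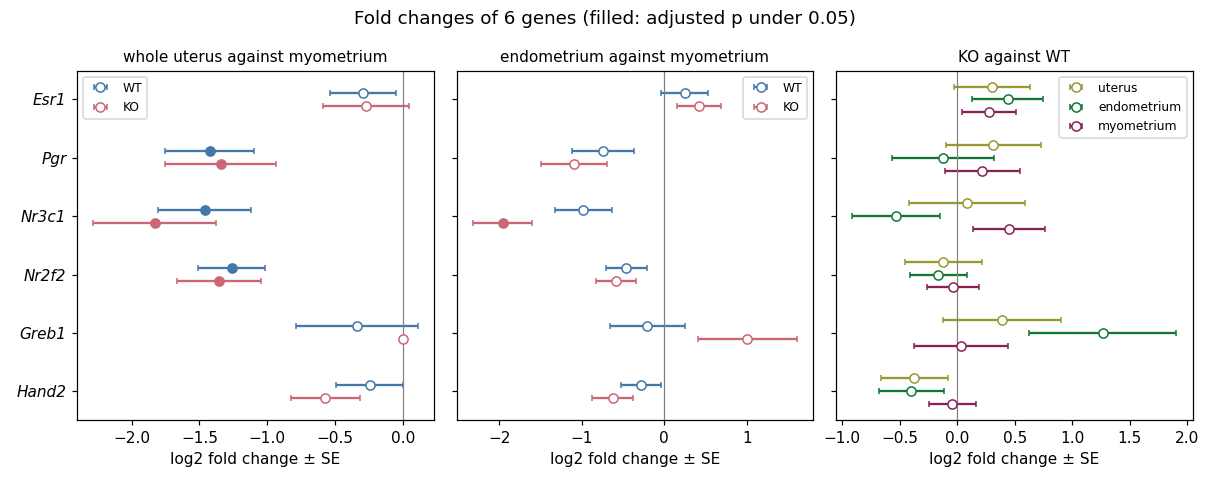
Log2 fold changes ± SE of the 6 genes (horizontal axis) in the comparisons of tissues and of genotypes. Filled points passed an edgeR adjusted p under 0.05, and the open point without a bar is Greb1 in KO uterus against myometrium, whose difference is so near 0 that no SE was derived. The filled points are Nr2f2, Nr3c1 and Pgr in uterus against myometrium and Nr3c1 in KO endometrium against myometrium.

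The receptors and targets were not distinguishable between KO and WT mice in any tissue at this depth and spread. Of the 6 genes, 0 passed in uterus, 0 in endometrium and 0 in myometrium, against 0% of the 12959, 13004 and 12991 genes tested. At an unadjusted edgeR p under 0.05 there were 731, 676 and 548 genes and 0 of these 6 in any tissue. DESeq2 called 7, 1 and 0 genes, and again 0 of the 6. The spike-in scale moved the median of all genes from -0.05 to -0.37 in uterus and from 0.02 to 0.27 in endometrium, and 0 of the 6 passed on it in any tissue.

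The largest difference was that of Greb1 in endometrium, 1.26 ± 0.64 higher in KO on the log2 scale (edgeR adjusted p = 0.958). Without KO mouse 11 it was 0.33 ± 0.55. Plate rows A to C held mice numbered up to 8 and rows D to F those from 9 on, and within these the difference of the mean log2 levels of Greb1 was -0.00 (3 KO, 5 WT) and 1.59 (4 KO, 2 WT). Nr3c1 in endometrium gave -0.53 ± 0.38, and the other differences there were 0.44 ± 0.31 for Esr1 and -0.40 ± 0.28 for Hand2. Without KO mouse 11, Esr1 in endometrium gave 0.13 ± 0.27. In whole uterus, Esr1 gave 0.30 ± 0.33, Greb1 gave 0.39 ± 0.51 and Hand2 gave -0.37 ± 0.29, and without KO mouse 11 the first 2 gave 0.16 ± 0.34 and 0.11 ± 0.52. In myometrium, Nr3c1 gave 0.45 ± 0.31, Esr1 gave 0.27 ± 0.23 and Pgr gave 0.22 ± 0.33. The lowest edgeR adjusted p of any of the 6 genes was 0.94 for uterus, then 0.958 for endometrium and 0.9999 for myometrium. With standard errors of 0.23 to 0.64, a difference in Nr3c1 or Greb1 of the size seen here could not be told from the spread between mice.

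A shift in the layers held by KO and WT samples was not shown in any tissue. The mean log2 level of the 4 epithelial markers minus that of the 4 smooth muscle markers was 1.68 higher in KO than in WT endometrium (exact permutation p = 0.164 over 7 mice each, 0.362 after adjustment over 3 tissues). Without the KO mouse 13 sample it was 2.43 higher (exact permutation p = 0.0175, 0.0524 after adjustment). In uterus and in myometrium the score differed by 0.38 and 0.04 (exact permutation p = 0.241 and 0.955). With the score as a covariate, the endometrium differences were 1.40 ± 0.69 for Greb1, 0.37 ± 0.33 for Esr1 and -0.34 ± 0.33 for Hand2, beside 1.26, 0.44 and -0.40 without it. For Nr3c1 the value was -0.54 ± 0.41, beside -0.53.

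Levels of Greb1 in whole uterus and in endometrium went together from mouse to mouse, and those in myometrium were not shown to follow either. Over the 14 mice, log2 levels in uterus and in endometrium correlated with r = 0.795 (permutation p = 0.00044, 0.00792 adjusted over 18 relations, 3 tissue pairs for each of the 6 genes) and Spearman's rho = 0.789 (permutation p = 0.00134, 0.0241 adjusted). Without the 2 mice farthest from the median in uterus, WT 8 and WT 10, r was 0.795. Within genotypes it was 0.632 in WT and 0.946 in KO, 7 mice each. Without KO mouse 11, r was 0.742 (permutation p = 0.0052). Within plate rows A to C it was 0.695 (8 mice, exact permutation p = 0.0595), and within rows D to F 0.905 (6 mice, exact permutation p = 0.0361). On unscaled CPM r was 0.779 and on spike-in scaled CPM 0.704 (permutation p = 0.00086 and 0.00468). The last 3 kinds of check (leaving out mouse 11, plate rows and other scales) were chosen after seeing the data. A mouse that was high in Greb1 in its whole horn was thus high in its scraped mucosa as well, although both libraries of a mouse also share the animal's handling. A piece of horn also contains mucosa, and over 2869 genes the same-mouse r of these 2 tissues had medians of 0.366 in WT and 0.242 in KO. The share of all genes with such a relation was not counted, so it is not shown to be particular to Greb1. Greb1 had 3 counts or fewer in 2 samples each of WT uterus, WT endometrium and KO endometrium. Between uterus and myometrium, Greb1 gave r = 0.379 and rho = 0.279 (adjusted permutation p = 0.46 and 0.547), and r = 0.113 without KO mouse 11. Between endometrium and myometrium, Greb1 gave r = 0.513 and rho = 0.152 (adjusted permutation p = 0.223 and 0.779), and r = 0.122 without KO mouse 11.

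Pgr gave r = 0.605 between uterus and endometrium (permutation p = 0.0142, 0.128 adjusted) and rho = 0.644 (0.145 adjusted), which did not pass, and r = 0.559 without KO mice 11 and 14. Within plate rows the values for Pgr were 0.678 in A to C and 0.632 in D to F. Between endometrium and myometrium, Pgr gave r = 0.527 (adjusted permutation p = 0.223). No relation other than that of Greb1 passed after adjustment.

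**Figure D4:**
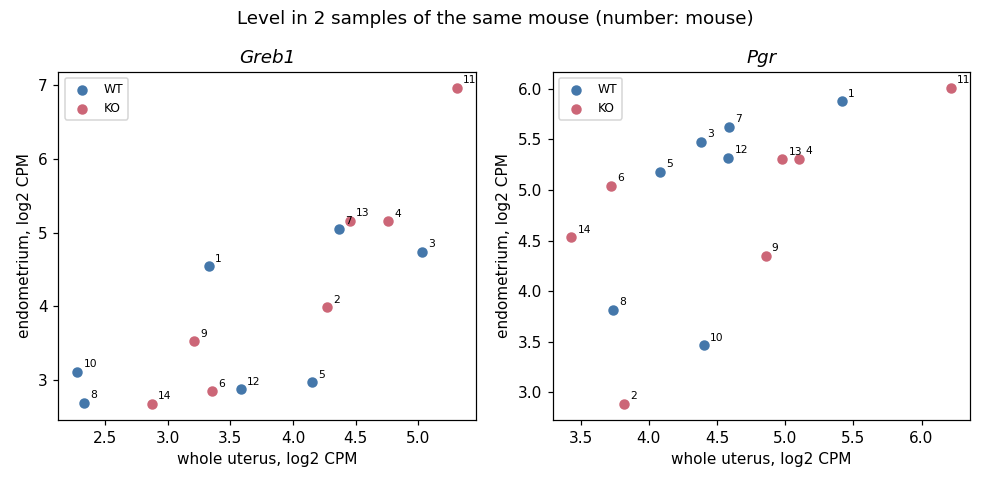
Level of Greb1 and of Pgr in endometrium (vertical axis, log2 CPM) against whole uterus of the same mouse (horizontal axis, log2 CPM), with 1 point per mouse and WT and KO marked. The Greb1 points rise together, with r = 0.795 over 14 mice, and the Pgr points are more scattered, with r = 0.605.

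As a description, the genes whose levels followed each gene most closely over the 42 samples were sought among 2868 genes of at least moderate level (2869 for Nr3c1). The samples share mice and fall into tissues, and r is therefore also given after taking out the 6 group means. For Nr2f2 they were Kcnq1ot1 (r = 0.833), Sptbn1 (0.819) and Malat1 (0.804). Kcnq1ot1 and Malat1 encode long noncoding RNAs of the nucleus. After taking out those means, r with Nr2f2 was 0.679 for Kcnq1ot1, 0.738 for Sptbn1 and 0.489 for Malat1. Malat1 stood at 1567 ± 581 CPM in WT uterus, 5296 ± 1907 CPM in WT endometrium and 6157 ± 2328 CPM in WT myometrium (SD, n = 7 each), the same order of tissues as Nr2f2. In KO mice Malat1 gave 1860 ± 817, 4162 ± 616 and 6903 ± 2143 CPM (SD, n = 7 each), again in that order. The part in the Nr2f2, Nr3c1 and Pgr results of whatever set the Malat1 level in a library was not tested.

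Nr3c1 was most like Sptbn1 (r = 0.779), Col1a2 (0.742) and Mbnl1 (0.730), and Pgr was most like Ahnak (r = 0.755), Nfib (0.729) and Col15a1 (0.696). Col1a2 and Col15a1 encode collagens. Esr1 and Hand2 had weaker partners: Prrc2a (r = 0.575), Map2k2 (0.550) and Gnai2 (0.549) for Esr1, and Eci2 (r = 0.613), Mgp (0.591) and Cisd3 (0.586) for Hand2. After taking out the group means, r was 0.561, 0.551 and 0.566 for the partners of Esr1 and 0.591, 0.423 and 0.420 for those of Hand2. It was 0.636, 0.477 and 0.395 for the partners of Nr3c1, and 0.636, 0.584 and 0.545 for those of Pgr. Greb1 had too few counts for this search.

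Among 6 lists of receptor partners and targets, single genes passed between layers, most listed genes did not, and no listed gene passed between genotypes. In the comparisons of KO with WT in each tissue, of uterus with endometrium, and in the interaction, 0 listed genes passed in edgeR. In endometrium against myometrium, 24 of 86 listed genes passed in WT (16 higher and 8 lower in endometrium) and 28 of 83 in KO (19 and 9), where 13.2% and 19.3% of all tested genes passed. In uterus against myometrium, 19 of 84 passed in WT (11 higher and 8 lower in uterus) and 21 of 78 in KO (13 and 8), where 12.0% and 14.1% of all tested genes passed. The list counts are from TMM factors and were not taken on the spike-in scale, which moved the calls in uterus against myometrium over all genes as given above. Since the lists were chosen with earlier results of these data known, the share of all genes is no neutral measure for these counts or those below.

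Estrogen-induced uterine genes made up much of the endometrial side: 10 of 18 passed in WT (8 higher, 2 lower) and 10 of 17 in KO (9 higher, 1 lower), with list medians of 2.01 and 2.24 beside 0.01 and 0.08 over all genes. Muc1, a mucin of the luminal surface, was 3.06 ± 0.54 higher in WT endometrium (edgeR adjusted p = 0.000268) and 3.71 ± 0.67 higher in KO (edgeR adjusted p = 0.000306). Sprr2f, a small proline-rich protein of the epithelium, was higher by 2.68 ± 0.55 and 3.86 ± 0.84 (edgeR adjusted p = 0.0012 and 0.00185). Muc1 and Sprr2f are epithelial genes, and the epithelial marker sums were also higher in endometrium. The part of epithelial content in the differences of the list was not tested.

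Of the progesterone and hedgehog pathway, 8 of 25 genes passed in WT (6 higher, 2 lower) and 8 of 21 in KO (4 higher, 4 lower). Irg1, which progesterone raises in the epithelium, was 3.13 ± 0.71 higher in WT endometrium (edgeR adjusted p = 0.00313). The size of that difference is uncertain, with means of 25.0 ± 29.4 CPM in WT endometrium and 2.49 ± 2.36 CPM in WT myometrium (SD, n = 7 each). In WT myometrium libraries the floor of 3 counts stood at 3.49 to 6.64 CPM. In KO mice Irg1 stood at a mean of 9.40 CPM in endometrium and 0.206 CPM in myometrium, too low there for a fold change. Foxa2, the gland factor, gave means of 5.95 and 2.61 CPM in WT and KO endometrium, with 0.738 CPM in the myometrium of WT mice and 0 in that of KO mice. Lower in endometrium were Zbtb16, a zinc finger factor that progesterone and glucocorticoid raise, at -1.18 ± 0.33 in WT and -1.51 ± 0.34 in KO (edgeR adjusted p = 0.0141 and 0.00238), and Il6st, the shared receptor subunit of the LIF family, at -1.07 ± 0.28 and -1.21 ± 0.25 (edgeR adjusted p = 0.0105 and 0.00121).

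Among 19 receptor partners tested, 3 passed in WT (1 higher, 2 lower) and 2 in KO (1 higher, 1 lower), shares near or under the 13.2% and 19.3% of all tested genes. Fkbp4, the immunophilin that keeps the progesterone receptor able to bind hormone, was 1.43 ± 0.26 higher in WT endometrium and 2.16 ± 0.32 higher in KO (edgeR adjusted p = 0.000382 and 3.95e-05). Stromal FGFs and their receptors gave 1 of 6 in WT and 2 of 7 in KO, all lower in endometrium. Fgfr1 was at -1.09 ± 0.35 and -1.32 ± 0.33 (edgeR adjusted p = 0.0382 and 0.00575).

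In the EGF family, to which Areg belongs, 2 of 9 genes passed in WT (1 higher, 1 lower) and 5 of 10 in KO (4 higher, 1 lower). Errfi1, an inhibitor of the EGF receptor that also stands in the corticosteroid list, was lower in endometrium, at -1.07 ± 0.30 and -1.29 ± 0.38 (edgeR adjusted p = 0.0153 and 0.0184). The corticosteroid list, of genes that make the hormone available to Nr3c1 and Nr3c2 or respond to it, gave 3 of 13 in WT (0 higher, 3 lower) and 3 of 13 in KO (1 higher, 2 lower), Zbtb16 and Errfi1 being lower in both.

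Repeat libraries give the technical spread of these levels. The endometrium of KO mouse 13 was measured in 3 libraries, which gave Nr2f2 at 32.3, 34.2 and 34.8 CPM (unscaled), Esr1 at 107, 119 and 109 CPM and Nr3c1 at 9.70, 8.15 and 8.99 CPM. Greb1 was less even, at 20.5, 24.5 and 50.6 CPM, and so was Pgr, at 42.04, 24.5 and 38.2 CPM. The myometrium of WT mouse 12 in 2 libraries, which lay in plate rows E and F, gave Nr2f2 at 158 and 102 CPM, Nr3c1 at 56.2 and 26.1 CPM and Pgr at 90.8 and 60.3 CPM. Nr2f2 and Nr3c1 thus differed more between the libraries of mouse 12 than between those of mouse 13.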

How the data were processed

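The authors sorted STRT reads by library barcode, joined those that shared a molecular identifier, aligned them with TopHat to mm9 and deposited a table of whole counts, unscaled and unfiltered. The methods name Homer over UCSC gene models for counting and the submitters' notes list HTSeq. Strand use and multiply aligned reads were not stated, and reads were not reprocessed here. Tissue and genotype in the labels gave the groups, and repeat libraries of a mouse were summed. The mouse numbers of the labels pair the tissues of an animal: over 2869 genes, deviations from the group means correlated above 0.1 in 39 of 42 same-mouse pairs, with medians of 0.169 to 0.366 and a lowest r of -0.029. For different mice medians were -0.062 to -0.019, but deviations from a group mean sum to 0, which pushes these values below 0. In 31 of the 42 pairs the sample was most like that of its own mouse, and in 3 of 7 for WT endometrium and myometrium. Total gene counts of 256298 to 1222627 per library limit the precision, and a floor of 3 counts covers counting error only.

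Genes entered a fit where 5 or more of its samples had 1 CPM or more, and were tested with edgeR 4.0.16 (R 4.3.3), with TMM factors, a quasi-likelihood F test and no covariate. A standard error is the absolute log2 fold change divided by the square root of F. Permutation tests were two-sided. Alternatives were DESeq2 1.42.0, other scalings, filters and thresholds, a single fit, a replicate block, covariates for plate rows and layer score, 1 library per mouse, and leaving out each mouse. The fits were tested on simulated data. The genes and lists were chosen with earlier results of these data known. From each list, up to 2 genes per direction were named, with the largest change past the threshold in endometrium against myometrium in both genotypes, and up to 3 genes were named as most like each of the 5 receptors and targets with a median of at least 10 counts. A listed gene that this rule names is not reported here.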

Additional observations from a re-analysis of the deposited data

Results flagged for a closer look

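The endometrium of KO mouse 13 stood apart in the layer score, the mean log2 level of epithelial markers minus that of smooth muscle markers. Its score was -3.16, while the nearest KO endometrium sample was at 0.74 and the highest at 3.56, so that the gap took up 0.58 of the range of the 7 samples. It was the only sample singled out by Dixon's criterion for a single distant value, among 42 groups of 7 values (36 of log2 gene levels and 6 of the score). Chance singles out a sample in about 5% of groups. Without it, the KO endometrium score was 2.43 above WT instead of 1.68. The sample is the sum of 3 libraries, in plate rows D, E and F, and rows D and E otherwise held whole uterus and myometrium. The mean score of KO whole uterus was -3.20, and the cause of the low score was not tested. None of the log2 levels of Esr1, Pgr, Nr3c1, Nr2f2, Greb1 or Hand2 was singled out in any group. That includes Greb1 in the endometrium of KO mouse 11, but the log2 scale draws high values in. In CPM this sample stood at 122, with the next KO endometrium sample at 33.1. The criterion was not applied to CPM, so mouse 11 is not shown to be ordinary.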

How the results depend on the processing

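With spike-in scaling, the count of the 6 genes called in uterus against myometrium was 0 in both genotypes, and the log2 difference of Esr1 turned to 0.41 in WT and 0.20 in KO, that of Greb1 in WT to 0.40 and that of Hand2 in WT to 0.45. In endometrium against myometrium of WT, 1 gene passed at an adjusted p under 0.1, with DESeq2 and with a 10 CPM filter, and in KO 4 at an adjusted p under 0.1, 2 with DESeq2, with RLE factors and with no gene filter, and 4 with a 10 CPM filter. In uterus against endometrium of WT, 1 passed with DESeq2. With the replicate block for the paired tissues, 3 passed in endometrium against myometrium of KO and 1 in uterus against endometrium of WT, no other call of these genes changed, and the calls over all genes rose to 671 and 475 in uterus against endometrium of WT and KO and to 10 in the interaction. Leaving out 1 mouse gave 0 to 1 and 1 to 2 of the genes in endometrium against myometrium of WT and KO, 2 to 3 in uterus against myometrium of KO, and a log2 fold change from -0.45 to 0.042 for Greb1 in endometrium against myometrium of WT, reversed without WT mouse 12. The correlation of Greb1 between uterus and endometrium was 0.695 within plate rows A to C. Over all genes, KO against WT gave 7 calls in uterus with DESeq2, 1 in endometrium with DESeq2 and 7 with a single fit of all 6 groups, and in myometrium 1 with spike-in scaling and 3 with no gene filter. Uterus against endometrium gave 384 (adjusted p under 0.1), 471 (DESeq2), 518 (spike-in) and 439 (single fit) in WT, and 368, 431, 20 and 346 in KO. Uterus against myometrium of WT gave 2373 at an adjusted p under 0.1 and 4567 with spike-in scaling. Leaving out 1 mouse gave 0 to 1 calls for KO against WT in uterus and in myometrium, 1158 (without WT mouse 10) to 1825 for endometrium against myometrium of WT, 59 (without WT mouse 10) to 221 and 16 (without KO mouse 2) to 294 (without KO mouse 13) for uterus against endometrium of WT and KO, and 837 (without WT mouse 12) to 1842 and 1085 (without KO mouse 4) to 2168 for uterus against myometrium of WT and KO. Counting each log2 difference given for the 6 genes once per alternative, 688 kept sign and side of the threshold, 17 came to pass, 10 no longer passed and 5 turned sign. Differences not given in the text are outside this count. The causes were not tested. Depth leaves Nr3c2, Ihh and Areg unmeasured.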

Other observations

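Across the 42 samples, after taking out the means of the 6 groups, log2 levels of Pgr and Greb1 moved together with r = 0.53, those of Nr3c1 and Nr2f2 with r = 0.45, and those of Esr1 and Hand2 apart with r = -0.39. Before taking out the group means, r was 0.69 for Nr3c1 and Nr2f2 and 0.57 for Pgr and Nr3c1. These values are descriptions, since samples share mice, and libraries differ in depth.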
